A study of Canis lupus familiaris with 8 samples.

Results

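The genes described here were those with a lower level in MDCK I cells after hyperosmotic exposure and a still lower level with an siRNA against Nfat5 under the same exposure. They were chosen from the count table by their own values. The 8 libraries were scaled by size factors, the 4 group means were put on the log2(mean + 1) scale, and a gene was taken when at least 1 group mean reached 400 normalized counts and all 3 differences were -0.6 or lower. These differences were Neg-siRNA (500 mOsm) minus Neg-siRNA (300 mOsm), called hyperosmolality below, and each Nfat5-siRNA (500 mOsm) minus Neg-siRNA (500 mOsm). Of 32704 genes in the table, 9951 reached that level, and 268 of them (2.69%) met all 3 thresholds. From these, 23 were left out by symbol, namely the kinesins of the KIF family and BUB1, BUB1B, CENPA, CENPE, KNL1, KNTC1, AURKA, PLK1, CCNA2, CCNB2, CDC25C, CDCA8, TOP2A, NCAPG, HMMR and DLGAP5. The 245 genes that remained are the members. A symbol was at hand for 124 of them and only an Ensembl identifier for the other 121.

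MDCK I is a canine kidney epithelial cell line. Every culture received an siRNA at 100 nM. Neg-siRNA, the control, was directed against Slc22a6, which per the study is not expressed in these cells, and Nfat5-1-siRNA and Nfat5-2-siRNA were separate constructs against Nfat5. Neg-siRNA (300 mOsm) stayed in isosmotic medium and is called the isosmotic group below, and the 3 other groups spent the last 24 h in medium brought to 500 mOsm with raffinose, a sugar that cells take up poorly. Each group had 2 replicates, which were cultures of passage 15 (replicate 1) and passage 17 (replicate 2). The replicates of a group are therefore cultures of 1 cell line at different passages, and each group held both passages. The siRNA treatment was transient, and no group combined an Nfat5-siRNA with isosmotic medium. Total counts per library lay between 34564103 and 46043788.

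Nfat5 is the transcription factor that raises the genes for uptake and synthesis of compatible osmolytes when the medium outside a cell becomes hyperosmotic. Acute hyperosmotic stress is also known to slow the cell cycle and to damage DNA and protein in renal epithelial cells. Genes for the mitotic machinery are transcribed mostly late in the cell cycle, ahead of division. In bulk RNA, fewer cells of a kind and less RNA per cell cannot be told apart.

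The labels of the groups were first set beside 4 osmotically regulated genes whose identifiers were known. These were SLC6A12, the betaine transporter, SLC6A6, the taurine transporter, SLC5A3, the myo-inositol transporter, and AKR1B1, the aldose reductase that makes sorbitol. SLC6A12 was at 105.5 and 216.2 normalized counts in the isosmotic group, 86870 and 75210 in Neg-siRNA (500 mOsm), 32290 and 16870 with Nfat5-1-siRNA and 23740 and 20610 with Nfat5-2-siRNA. Hyperosmolality raised all 4 genes (edgeR, 4 called higher), Nfat5-1-siRNA lowered 3 of them and Nfat5-2-siRNA lowered 4, while SLC5A3 under Nfat5-1-siRNA had a log2 fold change of -1.46 and an adjusted p of 0.0716 in edgeR. With the passage as a block that p was 4.28e-07 in edgeR, and all 4 genes were called lower with each siRNA. None of the 4 is a member, since all were higher with hyperosmolality. Their identifiers came from the gene list of the study, chosen on these same libraries for a fall with each Nfat5-siRNA. The values of the 4 genes are therefore a description and no independent check of the labels. The level of Nfat5 itself was not analysed here, because its identifier was not paired with its symbol, so the groups are named by the siRNA they received. The study reports that Nfat5 mRNA rose with hyperosmolality in its RNA sequencing and that the Nfat5-siRNAs had no effect on it. In western blots it found less Nfat5 protein with each Nfat5-siRNA. All 12 kidney epithelial genes listed to check the cell type also lacked a paired identifier and were not analysed here. Of 14 genes listed as markers of mesenchymal and blood cells, PDGFRA alone was paired, with 1494 and 1295 normalized counts in the isosmotic group, 2775 and 2245 in Neg-siRNA (500 mOsm), 1261 and 1386 with Nfat5-1-siRNA and 1168 and 1418 with Nfat5-2-siRNA. PDGFRA, a growth factor receptor of mesenchymal cells, was called higher with hyperosmolality and lower under both siRNAs by edgeR, and its part in the results was not tested.

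Hyperosmolality left the members at a median of 45.4% of their isosmotic level (quartiles 33% and 56.2%). With an siRNA against Nfat5 in addition, the median was 20.1% with Nfat5-1-siRNA and 18.4% with Nfat5-2-siRNA. Over all 9951 genes at that level the medians were 100%, 106% and 102%. Because the rule demanded these differences, they describe how far the members lay from the isosmotic group and are not a test. The median log2 difference of the members was -1.14 after hyperosmolality, -1.04 under Nfat5-1-siRNA and -1.10 under Nfat5-2-siRNA. The lowest were -6.35, -4.90 and -4.84. In 135 of the 245 the hyperosmotic difference was lower than the mean of the siRNA differences, as it was in 4922 of the 9951 genes at that level and in 3 of the 23 genes left out by symbol, whose medians were -1.37, -1.58 and -1.93.

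The members together took 2.06% and 2.19% of all counts in the isosmotic replicates, 0.862% and 0.965% in those of Neg-siRNA (500 mOsm), 0.520% and 0.495% with Nfat5-1-siRNA and 0.505% and 0.474% with Nfat5-2-siRNA. The isosmotic group lay above Neg-siRNA (500 mOsm) and this above both Nfat5-siRNA groups, without overlap, while the Nfat5-siRNA groups overlapped each other. The heat map of the members by library shows the same steps gene by gene, in the order that the rule demands.

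**Figure D1:**
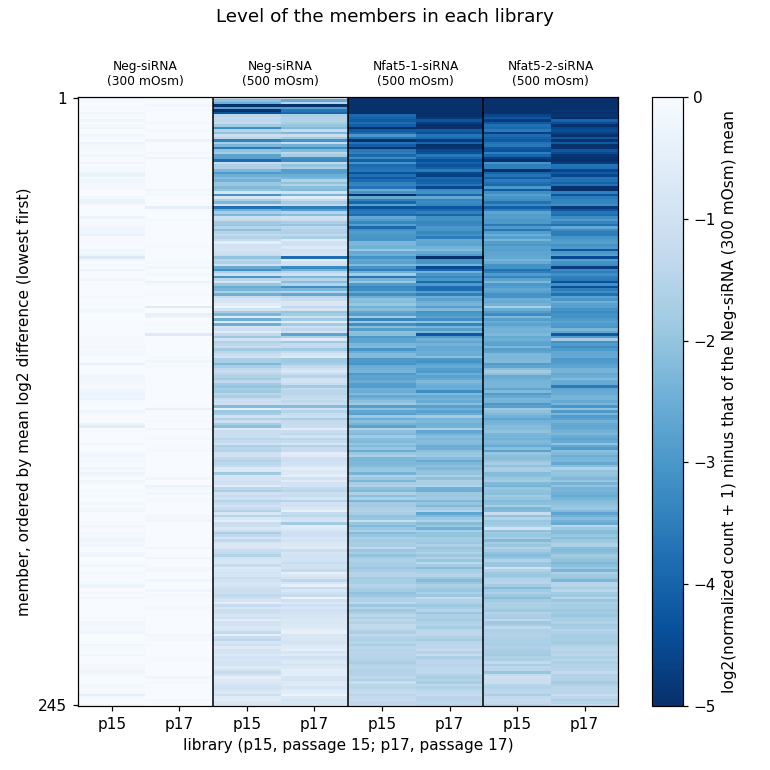
Each row is 1 of the 245 members and each column 1 library; the colour is log2(normalized count + 1) minus the same for the mean of Neg-siRNA (300 mOsm), from 0 or higher (white) to -5 or lower (darkest blue). The first 2 columns are near 0, the next 2 are lower, and the 4 columns of the Nfat5-siRNA groups are the lowest.

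Of the members, 182 were called lower with hyperosmolality by edgeR (adjusted p under 0.05), where 9.23% of all 19835 tested genes were called lower. With Nfat5-1-siRNA 133 were called lower (4.53% of tested genes), and with Nfat5-2-siRNA 169 (7.38%). With the passage as a block the counts were 239, 235 and 232, beside 15.7%, 11.9% and 15.3% of tested genes. Since the rule used these contrasts, nothing is read from these counts. The replicates did not overlap between the groups in 243, 240 and 237 members, and in all 3 comparisons at once in 233, where 38.3%, 36.5% and 39.4% of the genes at that level were lower without overlap in the single comparisons and 1031 of the 9951 in all 3.

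The thresholds cut through a continuous distribution. The members closest to the limit were EIF3E, HPN and CHST10, whose weakest differences were -0.6004, -0.6015 and -0.604. Just outside it lay SIL1 at -0.5975, TSPAN17 at -0.5839 and CLIC1 at -0.5819. Taken alone, the threshold of -0.6 was met by 20.8% of the genes at that level for hyperosmolality, 14.8% for Nfat5-1-siRNA and 19.1% for Nfat5-2-siRNA. With the same thresholds in either direction, a hyperosmotic fall that both siRNAs reversed was seen in 336 genes, a hyperosmotic rise that both siRNAs reversed in 522, and a rise in all 3 comparisons in 103.

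Role lists were then used to order the named members. A gene could be assigned to its identifier only through the gene list of the study, which was chosen on these same libraries. The study describes that list as genes raised by hyperosmolality and lowered by each Nfat5-siRNA. In the fit used here, of those 989 genes, 362 were called lower after hyperosmolality, 495 under Nfat5-1-siRNA and 606 under Nfat5-2-siRNA, and 148 are members, which the rule makes lower after hyperosmolality. The list thus holds genes of both hyperosmotic directions. Counts within a list are thus counts over genes already selected, and list genes without a pairing were not analysed here. In all, 59 members belonged to a list.

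The kinetochore is the protein assembly that ties a chromosome to spindle microtubules. Of 26 genes listed for it, 10 were paired and 9 are members, among them all 4 subunits of the Ndc80 complex that grips the microtubule (NDC80, NUF2, SPC24 and SPC25). SPC24 (chromosome 20, 50098984 to 50107742, plus strand of CanFam 3.1) was at 2950 and 4472 normalized counts in the isosmotic group, 496.7 and 541.0 in Neg-siRNA (500 mOsm), 183.3 and 157.5 with Nfat5-1-siRNA and 228.8 and 201.5 with Nfat5-2-siRNA. NUF2 (chromosome 38, 19573978 to 19600678, minus strand) was at 1974 and 2948 in the isosmotic group, 754.4 and 1040 in Neg-siRNA (500 mOsm), 191.2 and 156.6 with Nfat5-1-siRNA and 184.8 and 137.3 with Nfat5-2-siRNA. SPC24 had its larger difference with hyperosmolality (log2 difference -2.84, then -1.60 and -1.27), and NUF2 with the siRNAs (-1.46, then -2.36 and -2.47). NDC80 was at 27.2% of its isosmotic level in Neg-siRNA (500 mOsm), 13.9% with Nfat5-1-siRNA and 12% with Nfat5-2-siRNA, and SPC25 was at 45.9%, 19.5% and 19.9%.

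The other kinetochore members act in the checkpoint, at the centromere and on sister cohesion. TTK, the kinase that starts the spindle checkpoint, was at 2360 and 2905 normalized counts in the isosmotic group, 986.7 and 918.5 in Neg-siRNA (500 mOsm), 517.2 and 329.9 with Nfat5-1-siRNA and 393.6 and 223.2 with Nfat5-2-siRNA. HJURP, the chaperone that loads the centromeric histone, was left at 25.4%, 7.69% and 6.75% of its isosmotic level in the same order of groups. SGO2, a protector of centromeric cohesion, was at 42.7%, 21.9% and 18.9%. KNSTRN, a kinetochore and spindle protein, was at 29.6%, 9.82% and 11.3%. In the 10 paired genes of the list, 9 were called lower after hyperosmolality, 9 under Nfat5-1-siRNA and 10 under Nfat5-2-siRNA, and the median log2 fold changes were -1.57, -1.22 and -1.30. With the block all 10 were called lower in each comparison. SKA2, a subunit of the Ska complex, was the paired gene that is not a member, because its hyperosmotic difference did not reach the threshold.

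Genes for the spindle, the midzone and cytokinesis made up the list with the most members, 15 among 15 paired genes of 22 listed. CKAP2L, a microtubule-associated protein of the spindle (chromosome 17, 36938302 to 36964593, minus strand), was at 1583 and 1710 normalized counts in the isosmotic group, 239.0 and 228.1 in Neg-siRNA (500 mOsm), 23.8 and 45.5 with Nfat5-1-siRNA and 32.0 and 23.7 with Nfat5-2-siRNA. It thus retained 14.2% of its isosmotic level after hyperosmolality and 2.10% and 1.69% with the siRNAs. SPAG5, also called astrin, was at 3717 and 3898, then 1555 and 1282, then 233.5 and 134.7 with Nfat5-1-siRNA and 201.8 and 120.5 with Nfat5-2-siRNA. TACC3, which stabilises spindle fibres, was at 7082 and 8430, then 2567 and 2428, then 590.4 and 469.0 with Nfat5-1-siRNA and 704.3 and 567.9 with Nfat5-2-siRNA. SPAG5 had larger log2 differences with the siRNAs (-1.42, then -2.94 and -3.13), whereas CKAP2L was lower by similar steps in each comparison (-2.81, -2.72 and -3.02).

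TPX2, the activator of Aurora A on the spindle, kept 59.2% of its isosmotic level in Neg-siRNA (500 mOsm), ECT2, the exchange factor that starts furrow contraction, kept 63.6%, and SHCBP1, a midbody protein, kept 60.0%. With Nfat5-1-siRNA these genes were at 22.6%, 22.7% and 18.2%, and with Nfat5-2-siRNA at 17.3%, 16.9% and 14.1%. NUSAP1, a nucleolar and spindle-associated protein, showed the other pattern, with 30.9% left after hyperosmolality and 18.4% and 15.3% with the siRNAs. PRC1, which bundles antiparallel microtubules of the midzone, was at 3745 and 4285 normalized counts in the isosmotic group, 1733 and 1505 in Neg-siRNA (500 mOsm), 701.4 and 715.7 with Nfat5-1-siRNA and 482.5 and 579.7 with Nfat5-2-siRNA. DEPDC1 and DEPDC1B, which share a DEP domain, IQGAP3, a scaffold protein, GTSE1, a microtubule-binding protein, TROAP, a partner of trophinin, and MTFR2, known as a regulator of mitochondrial fission, were left at 33%, 34.1%, 32.6%, 44.9%, 30.3% and 52.7% after hyperosmolality, and each was between 5.60% and 22% of its isosmotic level in the siRNA groups. Of the 15 genes, 13 were called lower with hyperosmolality and 15 with each siRNA (medians -1.54, -1.66 and -1.96). Over all tested genes 9.23%, 4.53% and 7.38% were called lower. All 15 are members, so the rule had already required these falls and nothing is read from the calls. With the passage as a block all 15 were called lower in each comparison, beside 15.7%, 11.9% and 15.3% of tested genes. The genes added for hyperosmolality were ECT2 and SHCBP1.

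The list of mitotic exit and cell cycle control held 27 genes, of which 5 were paired and 4 are members. CDKN3, a phosphatase of cyclin-dependent kinases (chromosome 8, 30344565 to 30360418, plus strand), was at 663.2 and 849.0 normalized counts in the isosmotic group, 37.4 and 49.5 in Neg-siRNA (500 mOsm), 9.69 and 6.13 with Nfat5-1-siRNA and 18.0 and 13.8 with Nfat5-2-siRNA. Among members with a symbol it had the lowest hyperosmotic difference (-4.09). CDKN3 shares exonic bases with another annotated gene, and reads were counted without strand. CCNB3, a B-type cyclin, was at 9.74% of its isosmotic level after hyperosmolality and 3.23% and 3.79% with the siRNAs. Its log2 difference with Nfat5-2-siRNA was -1.34, and -2.19 without replicate 1 and -0.68 without replicate 2. UBE2C, the ubiquitin-conjugating enzyme of the anaphase-promoting complex, was at 5893 and 5937 normalized counts, then 2719 and 2344, then 1239 and 1110 with Nfat5-1-siRNA and 1188 and 1238 with Nfat5-2-siRNA. FBXO5, the inhibitor of that complex, was left at 42.8%, 18.9% and 15.7%. All 5 paired genes were called lower with hyperosmolality and 3 with each siRNA (medians -1.21, -1.20 and -1.41). MYBL2, a transcription factor of late cell cycle genes and the paired gene that is not a member, was lower with hyperosmolality (log2 fold change -0.74, adjusted p = 0.00918 in edgeR) and with Nfat5-2-siRNA (-1.21, adjusted p = 0.000559 in edgeR), and had -0.60 with Nfat5-1-siRNA (adjusted p = 0.0835 in edgeR, and 0.000761 with the passage as a block). With the block all 5 paired genes were called lower in each comparison.

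Of 21 genes listed for condensin and chromatin architecture, 5 were paired and all 5 are members. HMGB2, a DNA-bending protein abundant in dividing cells (chromosome 25, 23938507 to 23942256, minus strand), was at 9923 and 15370 normalized counts in the isosmotic group, 2248 and 2221 in Neg-siRNA (500 mOsm), 917.3 and 497.0 with Nfat5-1-siRNA and 990.0 and 545.2 with Nfat5-2-siRNA. In both siRNA groups the passage 17 library was the lower one, although in the isosmotic group it was the higher one. Its relative HMGB3 was at 40.1%, 15.1% and 20.1% of the isosmotic level, the condensin subunit NCAPH at 43.8%, 20.7% and 17.9%, the variant histone gene H2AFV at 34.1%, 15.1% and 17.2%, and the lamina protein TMPO at 63.2%, 37.6% and 36.2%. HMGB2, HMGB3 and H2AFV have close relatives in the genome, so the division of reads among copies is uncertain. All 5 genes were called lower in each comparison, with medians of -1.30, -1.20 and -1.05. As all 5 are members, the rule had already required these falls.

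DNA replication and repair genes were also among the members. Of 50 replication genes 4 were paired and 3 are members. DUT, which keeps uracil out of DNA by clearing dUTP, was at 3470 and 3157 normalized counts in the isosmotic group, 1591 and 1277 in Neg-siRNA (500 mOsm), 464.4 and 466.4 with Nfat5-1-siRNA and 637.3 and 676.5 with Nfat5-2-siRNA. POLD1, the catalytic subunit of polymerase delta, was left at 53.9%, 29.6% and 28.8%, and RFC2, a subunit of the clamp loader, at 60.9%, 25.8% and 27.4%. In this list 3 genes were called lower with hyperosmolality and 4 with each siRNA (medians -0.79, -1.08 and -1.19), and with the block 4 in each comparison.

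Of 32 repair genes, 6 were paired and all are members. BRCA1, of homologous recombination (chromosome 9, 19960910 to 20026621, plus strand), was at 3899 and 3874 normalized counts in the isosmotic group, 2127 and 1719 in Neg-siRNA (500 mOsm), 911.1 and 572.2 with Nfat5-1-siRNA and 696.3 and 486.9 with Nfat5-2-siRNA. The siRNA groups overlapped each other and lay below both libraries of Neg-siRNA (500 mOsm). MND1, known for its role in meiotic recombination, had the least left, with 19.4%, 4.33% and 5.46%. It was at 572.4 and 666.8 normalized counts in the isosmotic group, 125.5 and 115.1 in Neg-siRNA (500 mOsm), 35.2 and 18.4 with Nfat5-1-siRNA and 49.9 and 17.8 with Nfat5-2-siRNA. Its log2 difference with Nfat5-2-siRNA was -1.80, and -2.63 without replicate 1 and -1.31 without replicate 2. FANCI of the Fanconi pathway was at 44.9%, 21.6% and 19.0%, NSMCE1 of the SMC5/6 complex at 44.3%, 25% and 25.6%, and HPF1, a partner of PARP1, at 64.4%, 41.1% and 37.1%. Called lower were 5, 5 and 6 of them (medians -1.07, -1.08 and -1.12), beside 9.23%, 4.53% and 7.38% of tested genes. With the block all 6 were called lower in each comparison, beside 15.7%, 11.9% and 15.3%. As all 6 are members, the rule had already required these falls.

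Members outside the cell cycle included enzymes of mitochondrial metabolism. IDH2, the mitochondrial isocitrate dehydrogenase (chromosome 3, 53070718 to 53082680, minus strand), was at 31270 and 27830 normalized counts in the isosmotic group, 12710 and 13750 in Neg-siRNA (500 mOsm), 4002 and 3415 with Nfat5-1-siRNA and 3761 and 3952 with Nfat5-2-siRNA. Per length it was among the most abundant members, with 17330 normalized counts per kb of exon in the isosmotic group, against a median of 1035 over the members and 731.5 over all genes at that level. IDH2 was left at 44.8% after hyperosmolality and at 12.5% and 13.1% with the siRNAs. Of 17 genes of the tricarboxylic acid cycle, IDH2 and SUCLG2 were paired. IDH2 alone was called lower with hyperosmolality, and both genes were called lower with each siRNA (medians -0.85, -1.36 and -1.45). With the block both were called lower in each comparison.

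Fatty acid oxidation had 4 members among 5 paired of 20 listed genes. DECR1, which handles unsaturated fatty acids, was at 1651 and 1680 normalized counts, then 529.7 and 583.4, then 263.5 and 227.5 with Nfat5-1-siRNA and 240.7 and 184.7 with Nfat5-2-siRNA. Both subunits of the electron transfer flavoprotein are members, ETFA with 53.5%, 34.7% and 33.1% left and ETFB with 40.0%, 15.5% and 19.8%. ACSF2, an acyl-CoA synthetase, was at 53%, 23.3% and 22.1%. Of the 5 genes 4, 3 and 5 were called lower (medians -0.90, -1.20 and -1.06), and with the block 5 in each comparison. ACACB, which makes the malonyl-CoA that restrains fatty acid entry into mitochondria and is in no list, was at 877.9 and 782.2 normalized counts, then 292.9 and 344.2, then 44.9 and 47.3 with Nfat5-1-siRNA and 68.9 and 37.5 with Nfat5-2-siRNA.

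Amino acid catabolism had 5 members among 6 paired of 30 listed genes. IVD, an enzyme of leucine breakdown, was at 8321 and 7108 normalized counts, then 4277 and 4390, then 2687 and 2396 with Nfat5-1-siRNA and 2371 and 2297 with Nfat5-2-siRNA. It was left at 56.2%, 32.9% and 30.3% of its isosmotic level. FAH of tyrosine breakdown was left at 58.2%, 27.6% and 35.7%, ALDH5A1 of GABA breakdown at 56.3%, 35.2% and 29.0%, and KYAT1, a kynurenine aminotransferase, at 51%, 28.9% and 31.7%. BCAT1, the cytosolic aminotransferase that starts branched-chain amino acid breakdown, is not a member. It was at 5130 and 5731 normalized counts in the isosmotic group, 39630 and 33850 in Neg-siRNA (500 mOsm), 15580 and 12000 with Nfat5-1-siRNA and 13810 and 13650 with Nfat5-2-siRNA. It thus rose with hyperosmolality (log2 fold change 2.77, adjusted p = 1.6e-06 in edgeR) and fell with both siRNAs (-1.44 and -1.47, adjusted p = 0.00106 and 0.000513 in edgeR). In this list 5 genes were called lower and 1 higher with hyperosmolality, and 5 and 6 lower with the siRNAs (medians -0.81, -0.97 and -0.97), and with the block 5, 6 and 6 were lower.

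Of 23 genes of glycolysis and the pentose phosphate pathway, 4 were paired and PFKL alone is a member. PFKL, the liver isoform of phosphofructokinase, was at 22600 and 23060 normalized counts, then 12970 and 13930, then 4953 and 4280 with Nfat5-1-siRNA and 3774 and 4233 with Nfat5-2-siRNA. It shares exonic bases with other annotated genes. HK2, the hexokinase at the head of the pathway, and PGAM1, the phosphoglycerate mutase, rose with hyperosmolality (log2 fold changes 1.93 and 0.77, adjusted p = 1.04e-05 and 0.0221 in edgeR) and were called lower with both siRNAs. PFKL was called lower in all 3 comparisons, so that 1 gene was called lower and 2 higher with hyperosmolality and 3 were called lower with each siRNA (medians 0.11, -1.31 and -1.48). With the block 2, 4 and 4 genes were called lower.

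Translation factors and cold-shock proteins had 4 members among 6 paired of 25 listed genes. YBX1, a cold-shock protein that binds RNA and DNA, was at 27110 and 34530 normalized counts in the isosmotic group, 16370 and 18500 in Neg-siRNA (500 mOsm), 10450 and 10710 with Nfat5-1-siRNA and 8513 and 10450 with Nfat5-2-siRNA. With 28530 normalized counts per kb it was among the most abundant members by length. RBM3, a cold-inducible RNA-binding protein, was left at 33.1%, 19.6% and 16.6%, MCTS1, which helps recycle ribosomal subunits, at 49.2%, 27.8% and 28.9%, and the initiation factor subunit EIF3E at 57.4%, 37.9% and 28.9%. The partner of MCTS1, DENR, is not a member. It was at 3271 and 3073 normalized counts in the isosmotic group, 1948 and 1917 in Neg-siRNA (500 mOsm), 2970 and 2774 with Nfat5-1-siRNA and 2948 and 2597 with Nfat5-2-siRNA. DENR was thus lower with hyperosmolality (-0.70, adjusted p = 0.0162 in edgeR), while its higher values with the siRNAs had adjusted p = 0.144 and 0.249 in edgeR. With the passage as a block these became 0.00459 and 0.0254 in edgeR. In this list 5, 2 and 4 genes were called lower and none was called higher (medians -0.79, -0.76 and -0.88), and with the block 6, 5 and 5 were lower.

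Of 18 genes of the ciliary transition zone, the gate at the base of the primary cilium, 4 were paired and 3 are members. NPHP4 was at 917.3 and 835.7 normalized counts, then 409.7 and 458.2, then 251.1 and 199.5 with Nfat5-1-siRNA and 170.8 and 151.1 with Nfat5-2-siRNA. It was left at 49.5%, 25.7% and 18.4% of its isosmotic level and TMEM237 at 58.7%, 35.2% and 27.2%. CC2D2A, of the same structure, is not a member and had low counts, 21.1 and 13.4 in the isosmotic group, 95.8 and 118.1 in Neg-siRNA (500 mOsm), 10.6 and 12.3 with Nfat5-1-siRNA and 24.0 and 6.91 with Nfat5-2-siRNA. In this list 3 genes were called lower and 1 higher with hyperosmolality, and 1 and 3 lower with the siRNAs (medians -0.88, -1.05 and -1.32). With the block, 3, 4 and 4 were called lower.

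The 12 paired genes of these lists that are not members were tested in the same fit. Called lower were 2 for hyperosmolality, 8 for Nfat5-1-siRNA and 10 for Nfat5-2-siRNA, where 9.23%, 4.53% and 7.38% of tested genes were called lower. Of the 989 genes in the list of the study, through which these 12 were paired, 362, 495 and 606 were called lower. That list was chosen for siRNA falls, and the 12 are genes that the rule did not take. Both selections shape the counts of the 12 genes, so nothing is read from them. Called higher were 4 for hyperosmolality and 0 for the siRNAs, where 11.3%, 3.4% and 4.67% of tested genes were called higher. With the block, 8, 11 and 11 were lower, where 15.7%, 11.9% and 15.3% of tested genes were called lower. In that fit 4, 1 and 1 were higher, where 17.3%, 9.61% and 10.7% of tested genes were called higher. By role, the median level left with Nfat5-2-siRNA was lowest in mitotic exit (9.74%), spindle (11.3%) and kinetochore (11.7%) members and highest in amino acid catabolism (30.3%) and translation (28.9%). Among lists with at least 3 members the ranges overlapped, except that the spindle members (1.69% to 17.3%) lay below those of replication (19.8% to 28.8%) and of the ciliary transition zone (18.4% to 27.2%).

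**Figure D2:**
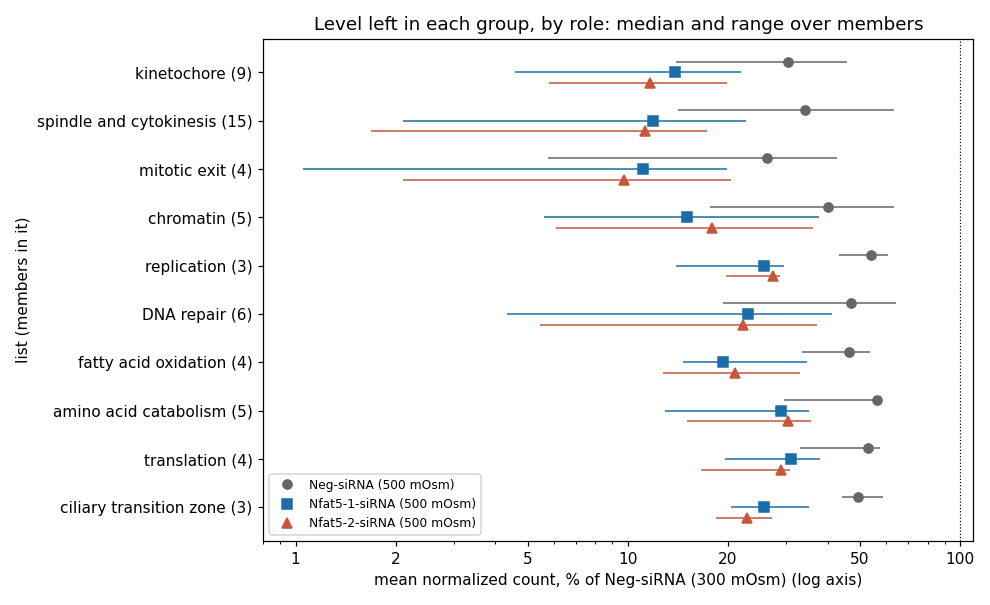
Each row is a list with at least 3 members, and the horizontal axis (log) gives the mean normalized count of a group as a percentage of Neg-siRNA (300 mOsm), with the median over the members as a symbol and their range as a line. Grey circles are Neg-siRNA (500 mOsm), blue squares Nfat5-1-siRNA and red triangles Nfat5-2-siRNA; the kinetochore, spindle, mitotic exit, chromatin and repair lists reach below 10% and the others do not.

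Several of the lowest members belong to no list. PRR11, a proline-rich protein known from cell cycle progression (chromosome 9, 33728630 to 33751816, plus strand), was at 921.0 and 1007 normalized counts in the isosmotic group, 229.1 and 159.5 in Neg-siRNA (500 mOsm), 13.2 and 14 with Nfat5-1-siRNA and 17.0 and 15.8 with Nfat5-2-siRNA. MAB21L3 (chromosome 17, 53585088 to 53605693, plus strand) was at 1039 and 1034, then 182.8 and 364.4, then 21.2 and 14 with Nfat5-1-siRNA and 31.0 and 11.9 with Nfat5-2-siRNA. Both were left at about 2% or less of their isosmotic level in the siRNA groups (1.41% and 1.70% for PRR11, 1.70% and 2.07% for MAB21L3). STX19, a syntaxin of epithelial membrane traffic, was at 773.3 and 966.9, then 396.5 and 405.7, then 109.3 and 70 with Nfat5-1-siRNA and 59.9 and 27.7 with Nfat5-2-siRNA. PLPPR2, a phospholipid phosphatase-related membrane protein, was at 360.5 and 490.7, then 45.2 and 90.8, then 12.3 and 9.63 with Nfat5-1-siRNA and 27.0 and 16.8 with Nfat5-2-siRNA. HPN, the membrane protease hepsin, lay at the other end, with 65.9%, 38.1% and 34.8% left. In the plot of normalized counts by library, the levels of members of different roles differ by orders of magnitude, while the order of the group means is the one the rule demands.

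**Figure D3:**
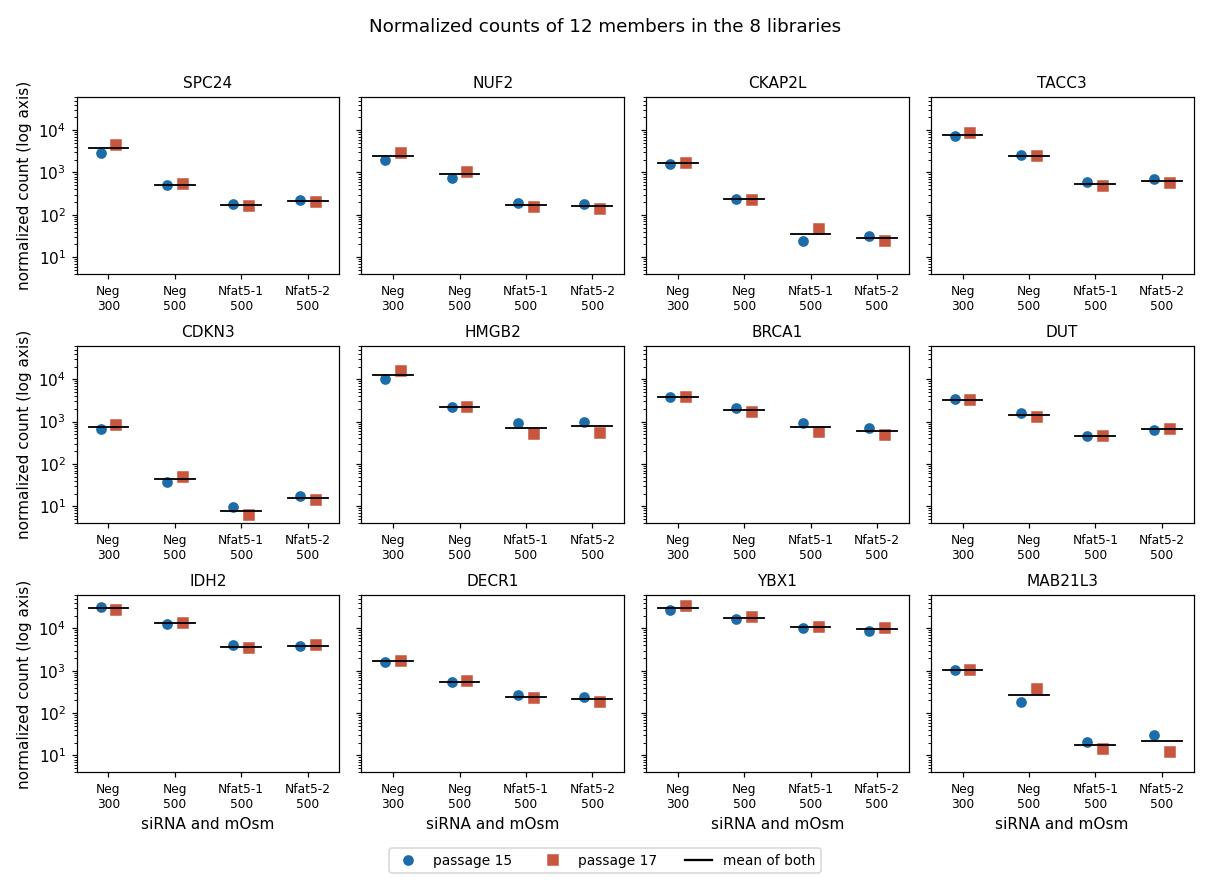
Normalized count (log axis, the same in each panel) of 12 members in the 8 libraries, with blue circles for passage 15, red squares for passage 17 and a bar for their mean. In each panel both libraries of Neg-siRNA (300 mOsm) lie above those of Neg-siRNA (500 mOsm), and these lie above the 4 Nfat5-siRNA libraries.

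The 121 members known by an identifier only had medians of -1.05, -0.90 and -0.96, close to those of the 65 members with a symbol in no list (-1.12, -1.06 and -1.16) and the 59 in a list (-1.21, -1.19 and -1.26). The extremes of the whole set were among them. ENSCAFG00000028589, on chromosome 4 of CanFam 3.1 (66956463 to 67033953, plus strand), was at 925.6 and 756.7 normalized counts in the isosmotic group, 6.61 and 12.1 in Neg-siRNA (500 mOsm), 1.76 and 0.875 with Nfat5-1-siRNA and 6.99 and 2.96 with Nfat5-2-siRNA. It carried the lowest hyperosmotic difference, but its siRNA differences rest on a few reads, and in passage 15 it was not lower with Nfat5-2-siRNA. ENSCAFG00000000200, on chromosome 10 (1363127 to 1364509, minus strand), was at 1207 and 1444, then 638.7 and 916.4, then 32.6 and 17.5 with Nfat5-1-siRNA and 10.0 and 42.5 with Nfat5-2-siRNA. It carried the lowest siRNA differences with a modest hyperosmotic one (-0.77), the reverse of the first gene.

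The members lay on 40 chromosomes and scaffolds. Their median exonic length was 2078 bases with 11 exons, against 2507 bases and 10 exons over all genes at that level. Exonic bases shared with another gene occurred in 33 members (13.5%), against 11.4%, and for these the counts of the partners cannot be told apart by strand. In 13 cases a member was the next gene to another member. CUL7, a cullin of a ubiquitin ligase, and MRPL2, a mitochondrial ribosomal protein, are 59 bases apart on the minus strand of chromosome 12 (11555419 to 11574485 and 11574545 to 11578479). Their log2 differences were -1.04, -0.70 and -1.22 for CUL7 and -0.72, -0.66 and -0.70 for MRPL2. VILL, a villin-like actin-binding protein, and PLCD1, a phospholipase C, are 385 bases apart on chromosome 23, on opposite strands with their 3′ ends facing, and had -1.50, -0.94 and -1.16 and -1.34, -1.16 and -1.34. These pairs were picked after their values were seen, and whether reads beyond a gene end add to a neighbour was not tested.

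The choice of members was then repeated in each passage separately, so that the values read were not those used to choose. With the passage 15 libraries alone, 179 genes met the rule. In passage 17, 141 of them (78.8%) again had all 3 differences at -0.6 or lower, where 3.29% of all genes at that level did, and 173 (96.6%) had all 3 below 0, where 19.7% did. Their median differences in passage 17 were -1.20 after hyperosmolality, -1.30 under Nfat5-1-siRNA and -1.43 under Nfat5-2-siRNA. With the passage 17 libraries alone, 311 genes met the rule, and in passage 15 143 of them (46%, against 1.98%) met all 3 thresholds and 293 (94.2%, against 18.4%) had all 3 below 0, with medians of -1.17, -0.86 and -0.84. Both passages chose 140 genes, which is 78.2% of those of passage 15 and 45.0% of those of passage 17. Within a passage the 3 differences share 1 library of Neg-siRNA (500 mOsm), the size factors came from all 8 libraries, and the passages are cultures of 1 cell line, so these counts carry no p-value.

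**Figure D4:**
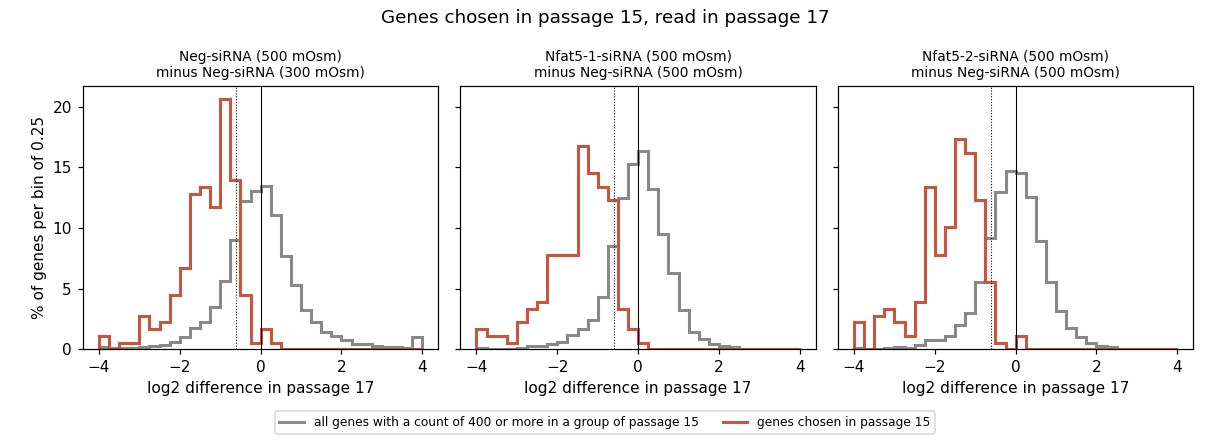
Distribution of the log2 differences in passage 17 (horizontal axis, bins of 0.25; values beyond 4 in either direction are in the end bins) for the 179 genes chosen in passage 15 (red) and for all genes with a normalized count of at least 400 in a group of passage 15 (grey), as a percentage of genes. The dotted line marks -0.6; the red distributions have medians of -1.20, -1.30 and -1.43 and the grey ones lie around 0.

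The siRNA differences of the members were smaller in size in passage 15. Over the 245 members the median hyperosmotic difference was -1.15 in passage 15 and -1.14 in passage 17. The median with Nfat5-1-siRNA was -0.93 in passage 15 and -1.20 in passage 17, and with Nfat5-2-siRNA it was -0.96 and -1.28. The siRNA difference was lower in passage 17 in 185 members (75.5%) for Nfat5-1-siRNA and 198 (80.8%) for Nfat5-2-siRNA, against 43.2% and 38.5% of all genes at that level. The rule used these values and took only genes that fall, so the share over all genes is no matched baseline. Each comparison also has 1 library a group within a passage. The shift was therefore not tested, and nothing is read from these counts. All 3 differences were below 0 in both passages in 242 members. The rule required each difference of the group means to be -0.6 or lower, so it largely sets this count. The share over all genes at that level is not given here, and nothing is read from the count.

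The level within groups also differed between passages for some members. With passage added to the groups, edgeR called 13 members lower and 7 higher in passage 17, where 2.02% and 1.28% of tested genes were called, and 355 lower and 225 higher of the 9951 genes at that level. The median log2 fold change of the members was -0.02. UBE2L6, a conjugating enzyme for the ubiquitin-like protein ISG15, was the member with a symbol among these 20 and was chosen after its value was seen. It was higher in passage 17 (log2 fold change 0.39 ± 0.0976 SE, adjusted p = 0.0382 in edgeR), with 5108 and 8109 normalized counts in the isosmotic group, 1392 and 1973 in Neg-siRNA (500 mOsm), 800.9 and 966.0 with Nfat5-1-siRNA and 904.0 and 961.0 with Nfat5-2-siRNA. Passage 17 was thus the higher library in each of the 4 groups. With filterByExpr as the filter on low counts, 3 members were called lower and 0 higher, so the call of UBE2L6 was lost.

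The Nfat5-siRNAs were also compared with each other. The rule did not set this difference, but it used both group means and took only genes lowered by each construct, so the members' counts and calls here are a description from which nothing is read about the set. The members were lower with Nfat5-2-siRNA than with Nfat5-1-siRNA in 147 of 245 (60.0%) by group mean, and so were 59.9% of all genes at that level. The median log2 fold change was -0.12 in the members and -0.10 in all genes at that level. No member passed the threshold in edgeR, where 0.0101% of tested genes were called lower and 0.0302% higher, and 48 of the 245 members had an unadjusted p under 0.05, as did 2142 of the 9951 genes at that level. DESeq2 called 1 member, ENSCAFG00000000212, named here after its values were seen, which was at 157.7 and 96.3 normalized counts with Nfat5-1-siRNA and 51 and 13.8 with Nfat5-2-siRNA (adjusted p = 0.503 in edgeR). With the passage as a block, edgeR called 14 members lower with Nfat5-2-siRNA and 1 higher, where 2.55% and 2.39% of tested genes were called, and 489 lower and 356 higher of the 9951 genes at that level. Among genes of the lists, MTFR2 was at 541.0 and 505.7 normalized counts with Nfat5-1-siRNA and 418.6 and 276.5 with Nfat5-2-siRNA (adjusted p = 0.0491 in edgeR with the block, 1 without it).

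The other members with a symbol called in the blocked fit were STX19, GRB7, C3orf33, CRYL1 and CUL7, of which STX19 alone was to be named by the rule and the others were taken after their values were seen. GRB7, an adaptor of receptor tyrosine kinases, was at 8112 and 8701 normalized counts in the isosmotic group, 2196 and 2106 in Neg-siRNA (500 mOsm), 1193 and 868.0 with Nfat5-1-siRNA and 697.3 and 629.1 with Nfat5-2-siRNA. Its log2 fold change between the siRNAs was -0.66 ± 0.166 (SE), with an adjusted p of 0.869 in edgeR without the block and 0.00321 with it. STX19 had -1.06 ± 0.337 (adjusted p = 1 in edgeR, and 0.0271 with the block). C3orf33 had -0.85, CRYL1 -0.67 and CUL7 -0.55. The member that was higher with Nfat5-2-siRNA in the blocked fit was ENSCAFG00000009519 on chromosome 24 (32162033 to 32174638, plus strand), also taken after its values were seen. It was at 4934 and 4720 normalized counts in the isosmotic group, 146.5 and 383.5 in Neg-siRNA (500 mOsm), 27.3 and 50.8 with Nfat5-1-siRNA and 113.9 and 163.9 with Nfat5-2-siRNA, a log2 fold change of 1.80 ± 0.411 (SE) between the siRNAs (adjusted p = 0.635 in edgeR, and 4.1e-09 with the block).

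**Figure D5:**
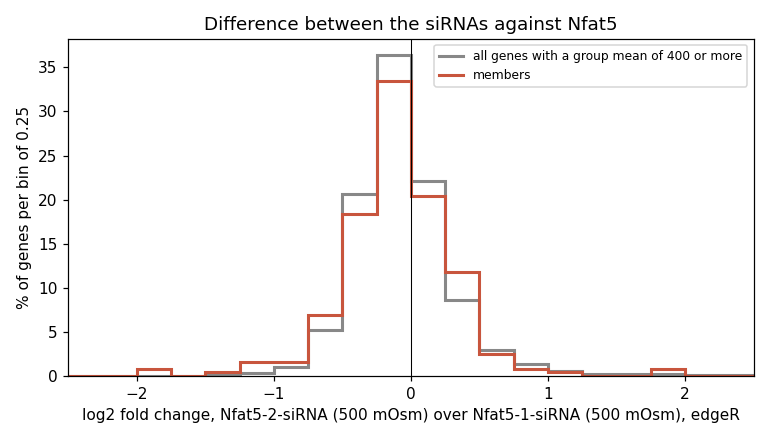
Distribution of the log2 fold change between Nfat5-2-siRNA (500 mOsm) and Nfat5-1-siRNA (500 mOsm) (horizontal axis, bins of 0.25) for the 245 members (red) and all genes with a group mean of at least 400 (grey), as a percentage of genes. The medians are -0.12 and -0.10, and both distributions centre slightly below 0.

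By role, 12 of the 15 spindle members and 7 of the 9 kinetochore members had a log2 fold change below 0 between the siRNAs (medians -0.34 and -0.22), as did 155 of all 245 members and 6342 of the 9951 genes at that level. In mitotic exit 1 of 4 members was below 0, in chromatin 2 of 5, in replication 1 of 3 and in amino acid catabolism 2 of 5. The medians of these lists were 0.11, 0.09, 0.06 and 0.10. In repair 3 of 6 were below 0, in fatty acid oxidation 3 of 4, in translation 3 of 4 and in the ciliary transition zone 2 of 3. Some members given above by library were picked as examples after their values were seen. The log2 fold change between the siRNAs was -0.14 ± 0.248 (SE) for NUF2, 0.31 ± 0.211 for SPC24, -0.34 ± 0.316 for CKAP2L, 0.24 ± 0.170 for TACC3 and -0.22 ± 0.268 for SPAG5. It was 0.03 ± 0.149 for IDH2 and 0.47 ± 0.161 for DUT. A p that misses the threshold with 2 replicates a group does not show that the constructs act alike.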

How the data were processed

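RNA of 8 libraries of MDCK I cells (2 per group, 4 groups) was sequenced as paired-end reads of 51 bases from polyA RNA. Per the submitters' processing notes, the file header and the paper's methods, the authors mapped reads to CanFam 3.1 with HISAT2 2.0.5 and counted them on the exons of Ensembl 92 genes with featureCounts 1.5.1, without strand. The authors deposited raw read counts per gene, not normalized. Pairs were not requested as the unit of counting, so mates may have been counted separately. Columns per library left unused were 0. The table pairs no identifier with a symbol, so symbols came from the supplementary gene list of the study, of which no values were used.

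Size factors were medians of ratios. A gene needed 5 or more counts summed over the libraries (19835 genes, all 245 members among them). Testing was by the quasi-likelihood test of edgeR 4.0.16 (R 4.3.3) with TMM, 4 groups and no block, two-sided, with the Benjamini-Yekutieli adjustment at 0.05. The passage contrast added passage to the groups. Tables were made with Python 3.11.15, numpy 2.4.6 and pandas 2.3.3. Nothing in the sources says that replicates differed by more than passage, so p-values measure the spread between these cultures. The replicate numbers pair the libraries because replicate 1 was passage 15 and replicate 2 passage 17 in each group, and deviations of same-numbered libraries from their group means correlated at 0.123 to 0.465 (6 pairs of groups, 12424 genes). The fits were tested on simulated data. Precision is limited by having 2 cultures a group.

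The members and lists were chosen with earlier results of these data known. Named genes were the members in a role list, the 10 members with a symbol and the lowest mean difference, the 5 with the highest counts, those nearest the threshold, and at most 2 members known by identifier only; others are marked as chosen after their values were seen. Some members that this rule names are not reported here. The alternatives were DESeq2's size factors or TMM-scaled counts, no filter or filterByExpr, the Benjamini-Hochberg adjustment, the passage block, DESeq2 1.42.0, other thresholds (-0.5 and -0.8, means of 200 and 800) and each replicate left out.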

Additional observations from a re-analysis of the deposited data

How the results depend on the processing

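The number of members was 119 at log2 differences of -0.8 or lower, and between 179 and 311 when a replicate was left out (179 without replicate 2 and 311 without replicate 1). Of the 245 members, 240 also met the rule with TMM-scaled counts, 217 without replicate 1 and 157 without replicate 2. The direction of each difference of the 66 members with a symbol chosen by the naming rule held with TMM-scaled counts and without each replicate, while ENSCAFG00000028589 had a log2 difference of 0.07 with Nfat5-2-siRNA without replicate 2. The number of genes called for hyperosmolality was 4077, and 7033 with the Benjamini-Hochberg adjustment, 6565 with the replicate block and 2384 to 4157 with a library left out. For Nfat5-1-siRNA against Neg-siRNA (500 mOsm) it was 1572, and 2866 without a filter on low counts, 4033 with Benjamini-Hochberg, 4264 with the block, 2682 with DESeq2 and 159 to 1620 with a library left out (159 without Nfat5-1-siRNA replicate 2). For Nfat5-2-siRNA it was 2390, and 3760 without a filter, 5250 with Benjamini-Hochberg, 5168 with the block and 954 to 2272 with a library left out. In these 3 comparisons the count moved by more than 1.5 times without any of the 4 libraries compared. Between the siRNAs it was 8, and 34 with DESeq2's size factors, 337 without a filter, 0 with filterByExpr, 186 with Benjamini-Hochberg, 979 with the block, 213 with DESeq2 and 0 to 38 with a library left out. Members called between the siRNAs were 0, and 4 without a filter, 2 with Benjamini-Hochberg (C3orf33 and ENSCAFG00000000212), 1 with DESeq2, 15 with the block and 0 with each library left out. Between passages 653 genes were called, and 101 with filterByExpr and 1570 with Benjamini-Hochberg; members called were 20, and 3 and 37. The causes of these shifts were not tested. With the block, no list had fewer genes called lower. A search of promoter sequences was planned and not run. The Nfat5-2-siRNA differences of MND1, CCNB3, PLPPR2, MAB21L3, ACACB and STX19 moved by more than 1.5 times on the linear scale with a replicate left out. They moved to between -0.68 (CCNB3 without replicate 2) and -4.83 (MAB21L3 without replicate 1). Of the 198 differences of the 66 members chosen by the naming rule, 10 moved by more than the spread between replicates without replicate 1. Without replicate 2, 11 moved, and with TMM-scaled counts 4. Among those that moved with a replicate left out were siRNA differences of CDKN3, NUF2, CCNB3 and TROAP. Hyperosmotic differences of GTSE1 and PRC1 were also among them. Depth limits members with few counts in the siRNA groups, such as CDKN3, PRR11 and ENSCAFG00000028589.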
